A study of Arabidopsis thaliana with 75 samples.

Results

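The 150 Arabidopsis thaliana genes described here had the largest loss of transcript from wild type (WT) leaves that lasted from 1 day (1D) to 5 days (5D) after a cut. They were picked from these same libraries out of 32833 genes. For each gene, L was log2 of the mean CPM (a gene's count scaled to a common library total) over the 3 libraries of a group plus 1, and the score was L at WT 0h minus the highest L among WT 1D, 2D, 3D, 4D and 5D. The 150 highest scores were taken. The WT levels at 0h and at 1D to 5D chose the genes, so these levels, and every comparison with those libraries, are given as a description without a test. Tests were made on the libraries of the other 2 lines and on WT from 1h to 18h, none of which the rule used.

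The 75 libraries came from leaf 8 of plants 4 weeks old, cut with a blade, with 3 libraries in each of 25 groups. WT covers 12 times, the hours 0h, 1h, 2h, 4h, 6h, 12h and 18h and each day up to 5D. The line labelled gpat4 gpat8 names mutations in 2 acyltransferase genes of cutin synthesis and covers 0h, 2h, 4h and 12h plus the first 3 days. The line labelled rbohE names a gene for an NADPH oxidase, an enzyme that makes superoxide outside the cell, and covers 0h, 2h and 4h, then 1D, 3D and 5D. Every library, 0h included, carries the treatment label wound, and uncut leaves of later times are not among the libraries used, which means that effects of the cut and of the hour of sampling cannot be told apart. The labels name no separate plants or cultures behind the 3 libraries of a group and no allele of either line, so p-values measure the spread between these samples.

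Many of the genes belong to leaf defence. In Brassicaceae, indole glucosinolates are sulphur compounds stored apart from the enzymes that break them down, and endoplasmic reticulum (ER) bodies are compartments packed with beta-glucosidases that act when tissue is torn. Jasmonate, a hormone made from chloroplast lipids after wounding, switches on storage proteins, volatile synthesis and both of these defences. Other members build or loosen the cell wall or serve photosynthesis, which intact leaves keep high and stressed leaves reduce.

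By role, 14 members encode ER body proteins and lectins, 5 act in indole glucosinolate synthesis, 12 in the jasmonate pathway or its outputs, 4 in antioxidant defence and repair, 17 in the cell wall, 11 in photosynthesis and light responses and 7 in hormone signalling, and 80 fall elsewhere. These role groups were drawn up after the members were known. All 150 were found in the RefSeq annotation, 149 as protein-coding genes, with 35, 22, 35, 25 and 33 on chromosomes 1 to 5. Of the members, 24 lie in 11 runs of neighbouring genes, such as BGLU18 beside TSA1, NSP1 beside NSP4 and PBP1, and FRO6 beside FRO7. A run allowed up to 2 other protein-coding genes between a member and the next. A further limit is that 9 members have a near-identical copy elsewhere, with at least 90% identity over at least 50% of their length, and 33 overlap another gene, so their reads may be shared. Strand use in counting is not given in the sources used here.

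The promoters of 3 members with high scores are printed because each holds the G-box, the letters CACGTG, a sequence bound by basic helix-loop-helix factors such as MYC2, the main jasmonate transcription factor, and by light and abscisic acid factors. Each line gives the 250 bases before the annotated start in RefSeq TAIR10.1, read 5′ to 3′ on the strand of the gene. Capitals mark the G-box and the other motifs searched, except TATAAA, which is left in lower case. AT3G28220 lies on the plus strand at chr3:10523931-10524180, AT5G23820 on the plus strand at chr5:8030915-8031164 and CSLA10 on the minus strand at chr1:8519985-8520234.
AT3G28220: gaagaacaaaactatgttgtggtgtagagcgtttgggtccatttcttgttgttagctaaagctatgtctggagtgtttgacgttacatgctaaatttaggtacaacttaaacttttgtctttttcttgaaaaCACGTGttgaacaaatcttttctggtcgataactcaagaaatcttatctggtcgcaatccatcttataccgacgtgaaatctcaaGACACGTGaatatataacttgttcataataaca
AT5G23820: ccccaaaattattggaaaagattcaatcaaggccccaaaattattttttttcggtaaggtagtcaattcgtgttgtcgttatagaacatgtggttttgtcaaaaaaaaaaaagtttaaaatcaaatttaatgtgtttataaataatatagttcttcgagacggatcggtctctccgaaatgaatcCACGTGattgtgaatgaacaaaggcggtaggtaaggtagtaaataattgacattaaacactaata
CSLA10: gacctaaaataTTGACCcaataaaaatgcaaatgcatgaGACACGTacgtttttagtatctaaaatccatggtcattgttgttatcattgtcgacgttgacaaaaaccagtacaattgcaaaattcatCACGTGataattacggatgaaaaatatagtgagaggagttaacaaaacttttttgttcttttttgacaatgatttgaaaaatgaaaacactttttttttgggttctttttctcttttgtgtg

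Over both strands, the G-box stood in 21 of 149 member promoters (14.1%) and in 1780 of 27443 promoters of all protein-coding genes in the table (6.49%). The W-box core TTGACC, bound by WRKY factors, was in 8.72% of member promoters against 12.2% of all. The GCC-box core GCCGCC, bound by ethylene response factors, was in 0.671% against 1.87%. The evening element core AATATCT, read by clock factors, was in 10.1% against 10.0%, and the TATA form TATAAA in 47.0% against 47.3%. ACGTGTC, a form of the abscisic acid element that can overlap a G-box, was in 3.36% against 3.68%. Among the role groups the G-box was in 4 of 11 promoters of photosynthesis and light genes (FRO6, FRO7, RBCS2B and RVE2) and in 0 of 12 of the jasmonate group. These shares are descriptions of letters in a short window.

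Library totals ran from 46045188 to 67376782 counts with a median of 61143105, and a count of 3, the floor used per library for bounds, equals 0.0445 to 0.0652 CPM. The deposited counts step by about 2.64 for each fragment, so a bound may be too large by about that factor. Clock genes differed between the 0h groups. CCA1, a morning clock factor, averaged 10.6 CPM at WT 0h and 3.56 at rbohE 0h but 133 at WT 1h and 260 at gpat4 gpat8 0h, while PRR3, an evening clock gene, averaged 82.6, 112, 0.24 and 0.29 CPM in those groups. Mesophyll markers, 6 genes of which CA1 is a member, summed to 4643 to 7889 CPM at WT 0h, 13670 to 15660 at rbohE 0h, 16450 to 18810 at gpat4 gpat8 0h and 3028 to 3340 at WT 3D. Myrosin cell markers, 3 genes, summed to 500 to 1102, 2858 to 3791, 743 to 1995 and 194 to 293 CPM in the same order. Guard cell markers, 10 genes, summed to 209 to 215 CPM at WT 0h and 79.9 to 98.0 at gpat4 gpat8 0h, and 8 of 10 root markers were at the floor at WT 0h. The part of these differences in the results below was not tested, and in whole leaves fewer cells of a type and less RNA per cell cannot be told apart. GPAT8 was not lower in the libraries labelled gpat4 gpat8 (mean 11.9 CPM at 0h against 7.57 at WT 0h), and GPAT4 averaged 24.4 against 34.4. In that line the descriptions of 9 libraries (those of 0h, 12h and 1D) include the letter M, whose meaning is not given. In the comparisons of 2h, 4h, 2D and 3D with 0h the M and the time cannot be told apart. No WT or rbohE library carries the M. When gpat4 gpat8 0h, 12h or 1D is set against WT or rbohE, the M and the line cannot be told apart.

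In WT most members fell within the first hour, some came back between 2h and 6h, and nearly all were low by 18h. The scores ran from 7.54 for AT3G28220 down to 1.88 for AT3G19850, 1.8665 for AT4G19530 and 1.8662 for AT2G36780 just inside the limit, with AT1G14120 at 1.8657 and CA2 and MYB113 at 1.86 just outside. At 1h, 118 of the 150 stood at or below 50% of their 0h mean and 14 stood at or above it. Relative to WT 0h on the L scale, 117 members were lower by at least 1 at 1h, against 23.8% of the 18365 genes with L of at least 1 in either group. By the same measure 93 were lower at 2h (28.0% of all), 98 at 4h (12.5%), 87 at 6h (6.87%), 114 at 12h (5.93%) and 145 at 18h (6.71%). Between 2h and 6h, 48 members stood at or above their 0h level at least once, whether or not they had fallen at 1h. They included 11 of 12 jasmonate genes, 5 of 5 indole glucosinolate genes and 6 of 14 ER body and lectin genes. The rest were 2 of 17 cell wall, 2 of 4 antioxidant and repair and 1 of 7 hormone genes and 21 of the 80 elsewhere. Of the photosynthesis and light genes, 0 of 11 did so. At 1h, 4 of the 12 jasmonate genes stood at or above their 0h level. The share over all genes was not counted. At 18h, 145 members were at or below 50% of their 0h level and 120 at or below 25%.

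**Figure D1:**
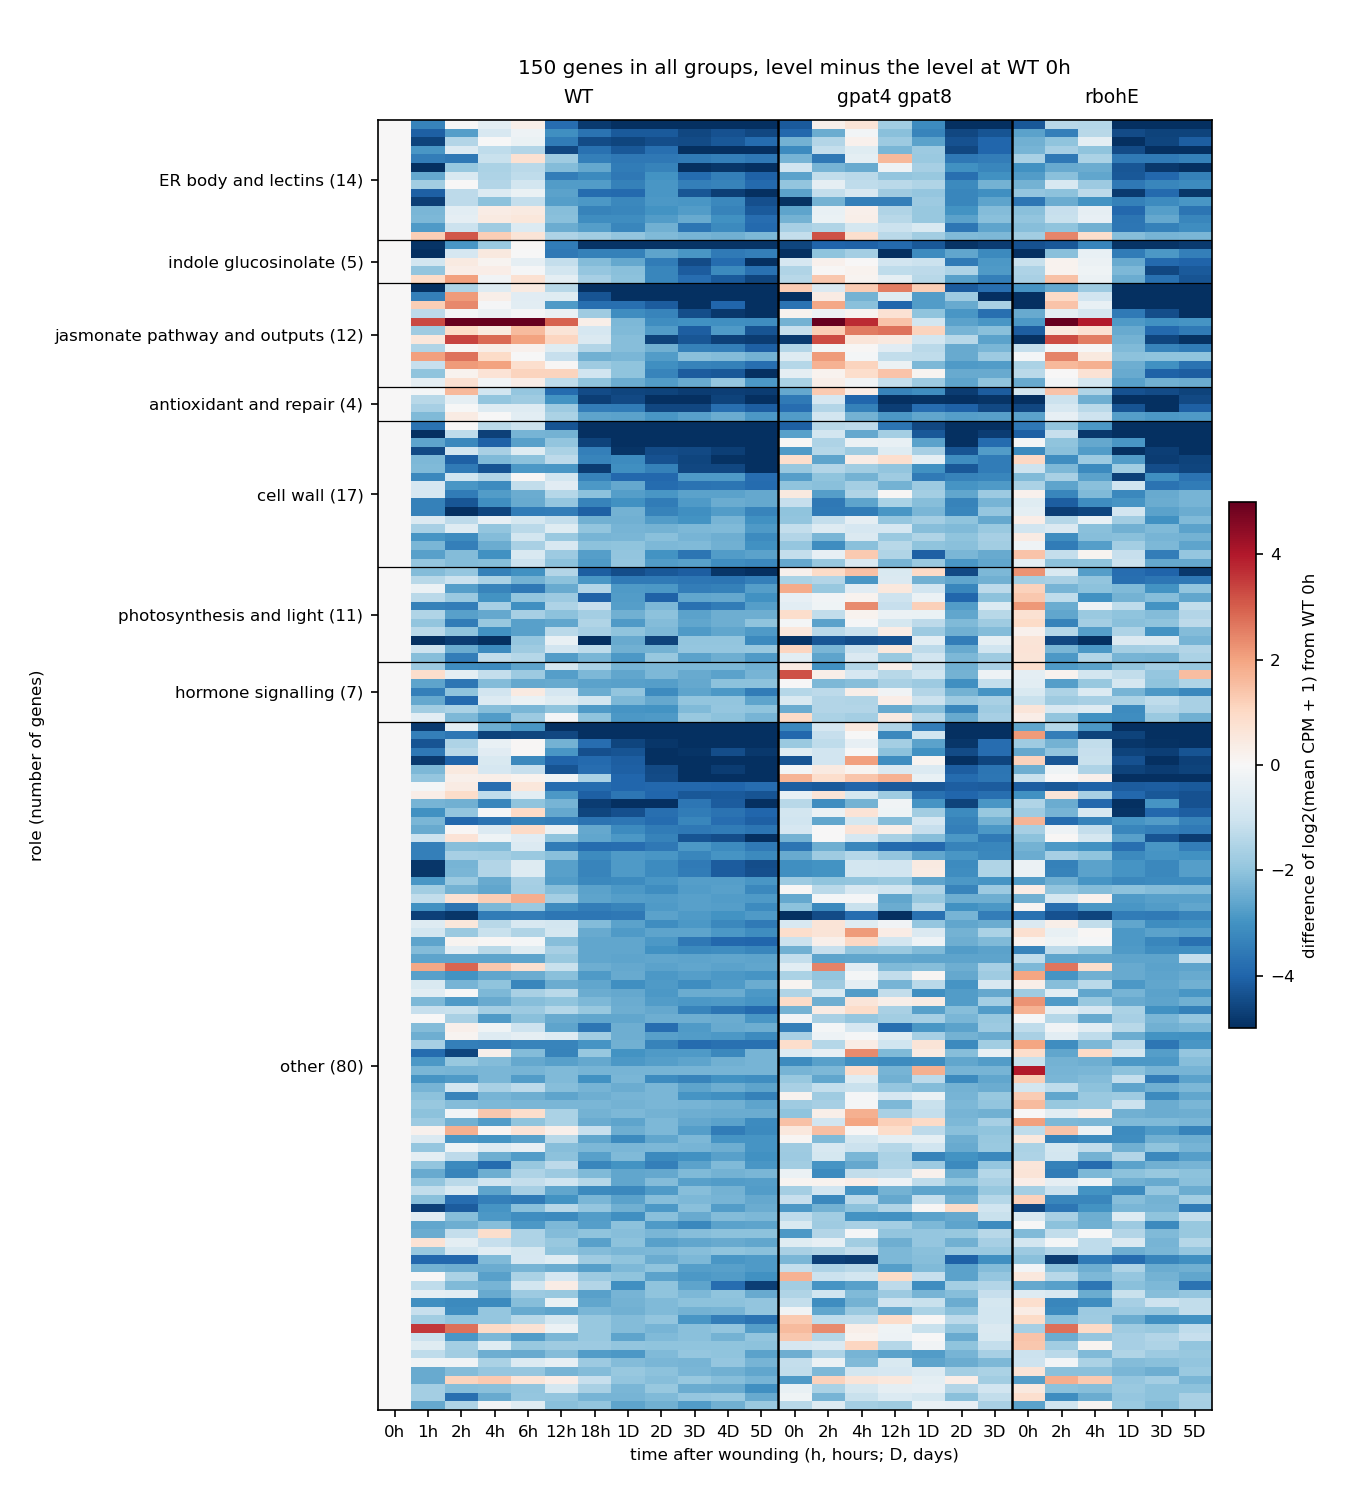
Level of each of the 150 genes (rows, grouped by role) in each of the 25 groups (columns), as the difference of log2(mean CPM + 1) from WT 0h, with blue for lower and red for higher. WT columns from 18h to 5D are blue in nearly all rows, several jasmonate rows are red at 2h to 6h, and the 0h columns of gpat4 gpat8 and rbohE hold both blue and red rows.

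The spread among the 3 WT 0h libraries was wide for some members, with a coefficient of variation above 0.5 in 23 of 150 and a median of 0.237. In AT3G01345, an uncharacterised gene, the WT 0h libraries read 58.8, 0.511 and 0.534 CPM, so a single library gave it its place. In GER3, a germin-like gene, they read 0.127, 1.35 and 10.7 CPM, and in AT1G09500 92.2, 13.6 and 0.172 CPM. WT 0h replicate 3 was the highest of the 3 for 75 members.

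The part of the WT course that the rule did not use could be tested. From 1h to 4h, 55 members were called higher (17.2% of all 23475 tested genes) and 45 lower (16.5%), where a call needs an edgeR adjusted p under 0.05 and a log2 fold change of at least 1 in size. From 4h to 18h, 87 were called lower (11.0% of all) and 6 higher (8.86%), 93 in all (19.9%), with a median log2 fold change of -1.41. That fall took in 12 of 12 jasmonate genes (median -3.59), 13 of 14 ER body and lectin genes (median -3.49) and 5 of 5 indole glucosinolate genes. It also took in 4 of 4 antioxidant genes and 6 of 17 cell wall genes. Of the 11 photosynthesis and light genes 3 fell and 3 rose. Among the largest falls, AT4G11320, a papain-type cysteine protease, read 7.95, 19.7 and 11.7 CPM at 4h and 0, 0.22 and 0 CPM at 18h (edgeR log2 fold change -7.42 ± 0.76, adjusted p = 1.09e-11), with no overlap. Its fitted value rests on a single 18h library above 0 and was -12.59 without it. Among the rises, FRO7, a chloroplast ferric reductase, read 34.3, 32.7 and 30.2 CPM and then 111, 102 and 144 CPM (edgeR log2 fold change 1.79 ± 0.16, adjusted p = 2.48e-14), ARR9, a type-A response regulator of cytokinin signalling, 0.975, 0.957 and 1.55 and then 3.33, 5.54 and 7.01 CPM (edgeR log2 fold change 2.11 ± 0.27, adjusted p = 1.47e-09), and the RING finger gene AT1G49200 0.211, 0.0772 and 0.128 and then 0.231, 0.691 and 1.22 CPM (edgeR log2 fold change 2.29 ± 0.50, adjusted p = 7.94e-05).

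**Figure D2:**
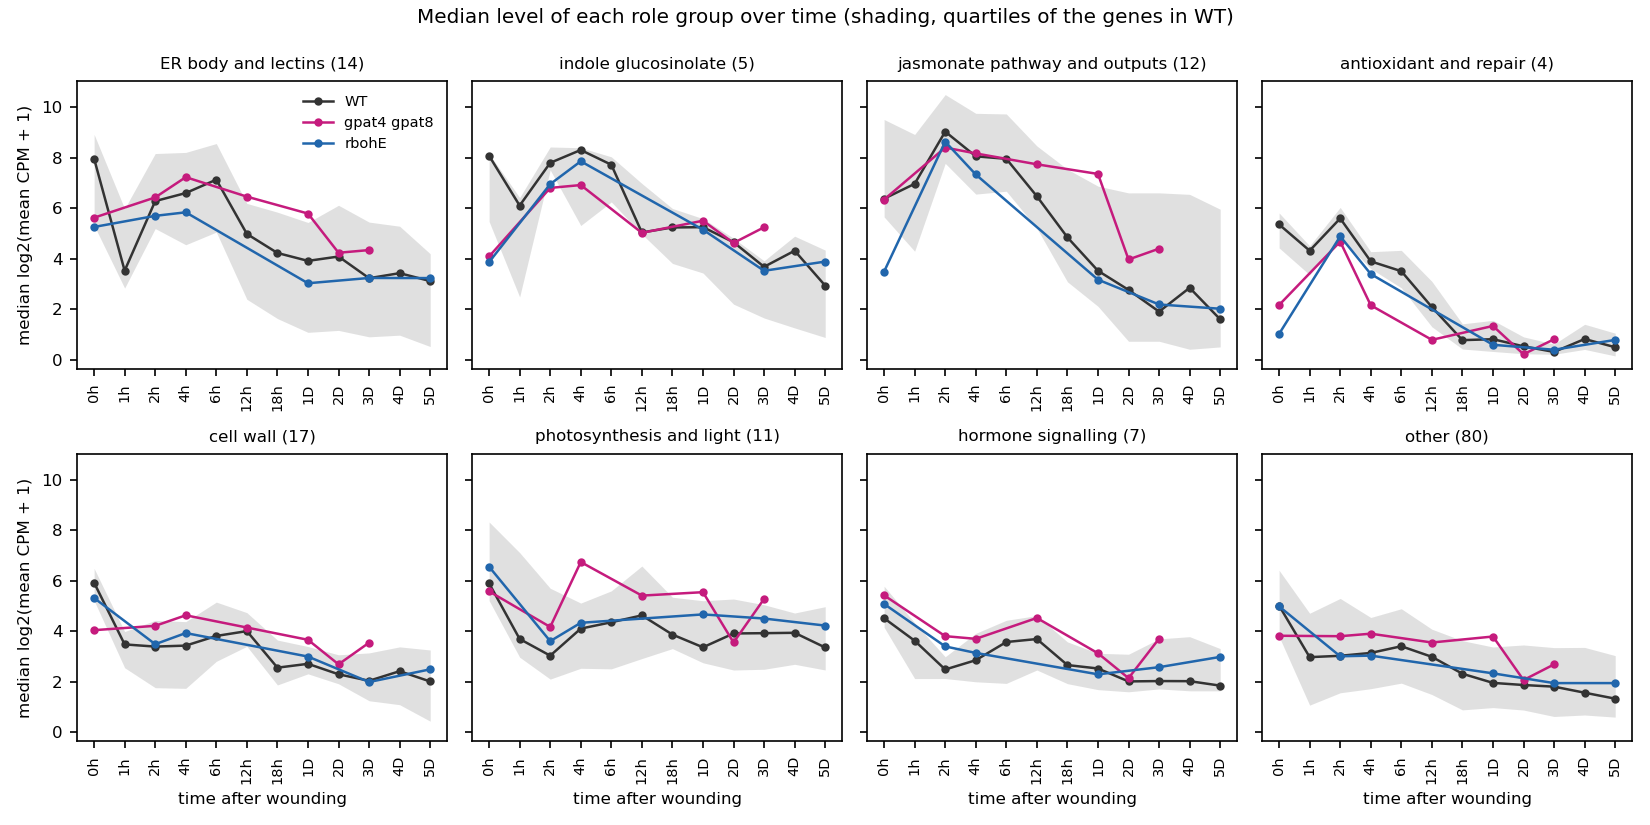
Median log2(mean CPM + 1) of each role group over time after wounding, with lines for WT, gpat4 gpat8 and rbohE and shading for the quartiles of the genes in WT. In WT the jasmonate median is above its 0h level at 2h and the indole glucosinolate median at 4h before both fall, and the photosynthesis and light median stays below its 0h level.

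All 12 jasmonate genes took part in the second fall. VSP2 encodes a vegetative storage protein with acid phosphatase activity that deters insects. Its WT libraries read 85.5, 73.2 and 105 CPM at 0h, 1.06, 1.60 and 1.09 at 1h and 75.2, 99.4 and 187 at 6h, and no WT library from 1D to 5D exceeded 1.16 CPM. The 0h level was regained at 6h and then lost. In rbohE it read 15.3, 5.84 and 10.3 CPM at 0h and 1.47, 0.221 and 0.382 at 5D (edgeR log2 fold change -4.14 ± 0.80, adjusted p = 1.51e-05). In gpat4 gpat8 it read 31.7, 38.6 and 561 CPM at 0h and 5.60, 6.57 and 4.48 at 3D (edgeR log2 fold change -5.54 ± 0.74, adjusted p = 6.52e-09). Both late groups lay below their own 0h libraries, and at gpat4 gpat8 0h replicate 3 held most of the mean. Without that library the log2 fold change at 3D was -2.92 and VSP2 was still called.

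BSMT1, a methyltransferase that makes volatile methyl benzoate and methyl salicylate, read 44.5, 72.1 and 53.7 CPM at WT 0h, 371, 189 and 191 at WT 2h, and at most 0.822 CPM in any library from WT 1D to 5D. In rbohE it read 0.613, 0.147 and 0 CPM at 0h and 92.7, 133 and 119 at 2h (edgeR adjusted p = 3.21e-08). At 3D and 5D all rbohE libraries read 0, and the 5D difference from the low 0h level did not pass the test (edgeR adjusted p = 0.201). TPS04, the terpene synthase that makes the precursor of the volatile TMTT, read 2.198, 0.456 and 0.807 CPM at rbohE 0h, 167, 261 and 191 at 2h and 1.82, 0.204 and 1.396 at 5D, so the 2h libraries stood above both (edgeR log2 fold change 7.71 ± 1.05, adjusted p = 4.08e-09 for 2h).

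ILL5, a member of the family of amidohydrolases that act on hormone conjugates, and UGT76E12, a glucosyltransferase, were with BSMT1 the largest rises at rbohE 2h. ILL5 read 13.4, 8.13 and 1.67 CPM at WT 0h and 786, 609 and 619 at WT 2h. At rbohE 2h it read 502, 494 and 488 CPM against 0.344, 0.114 and 0.0807 at 0h (edgeR adjusted p = 1.26e-18), and at gpat4 gpat8 2h 416, 337 and 331 against 0, 0.647 and 1.46 (edgeR adjusted p = 1.36e-16). Its 0h libraries in both lines were near the floor, where a fitted fold change depends on the prior count and is not given. UGT76E12 read 64.1, 27.3 and 4.13 CPM at WT 0h, a wide spread, then 410.2, 288 and 318 at WT 2h, 299, 329 and 327 at rbohE 2h and 329, 298 and 318 at gpat4 gpat8 2h. The 2h libraries of the 3 genotypes covered a common range for this gene, while at 0h the lines read 0.179, 0 and 0 and 0, 0.307 and 0.266 CPM.

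The group also holds enzymes of jasmonate synthesis and its classical outputs. LOX2, the chloroplast lipoxygenase that starts wound-induced jasmonate synthesis, was among the most abundant members, with 9005, 8354 and 6028 CPM at WT 0h and 497, 446 and 450.3 at WT 5D. It fell at rbohE 5D to 619, 658 and 767 CPM from 3337, 3394 and 3600.1 (edgeR log2 fold change -2.56 ± 0.16, adjusted p = 1.89e-20). JMT, which makes methyl jasmonate, fell from 10.7, 9.37 and 10.04 to 1.38, 1.73 and 1.64 CPM (edgeR log2 fold change -2.88 ± 0.21, adjusted p = 8.72e-18). CORI3, a cystine lyase induced by coronatine, fell from 971, 576 and 713 to 124, 103 and 95.9 CPM (edgeR log2 fold change -3.03 ± 0.20, adjusted p = 4.59e-19). In LOX2, JMT and CORI3 the 5D libraries lay below the 0h libraries without overlap. CLH1, a chlorophyllase near JMT in the genome, read 125, 83.8 and 103 CPM at rbohE 0h and 123, 93.2 and 105 at 5D and did not pass the test. NATA1, an acetyltransferase of ornithine defence metabolism, likewise overlapped, with 6.73, 2.05 and 0.872 CPM at 0h and 7.88, 2.77 and 5.43 at 5D.

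Over the 12 jasmonate genes, 11 rose from rbohE 0h to 2h (median log2 fold change 3.21) and 6 had fallen at 5D (median -2.34, or -2.18 when genes at the floor take their bounds). In gpat4 gpat8, 9 rose and 1 fell at 2h, and 7 had fallen at 3D, with 2 higher. Of the 12 other genes on a list of jasmonate outputs, 9 rose and 0 fell at rbohE 2h, whereas at rbohE 5D 1 had fallen and 3 had risen, and at gpat4 gpat8 3D 8 had fallen and 1 had risen.

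**Figure D3:**
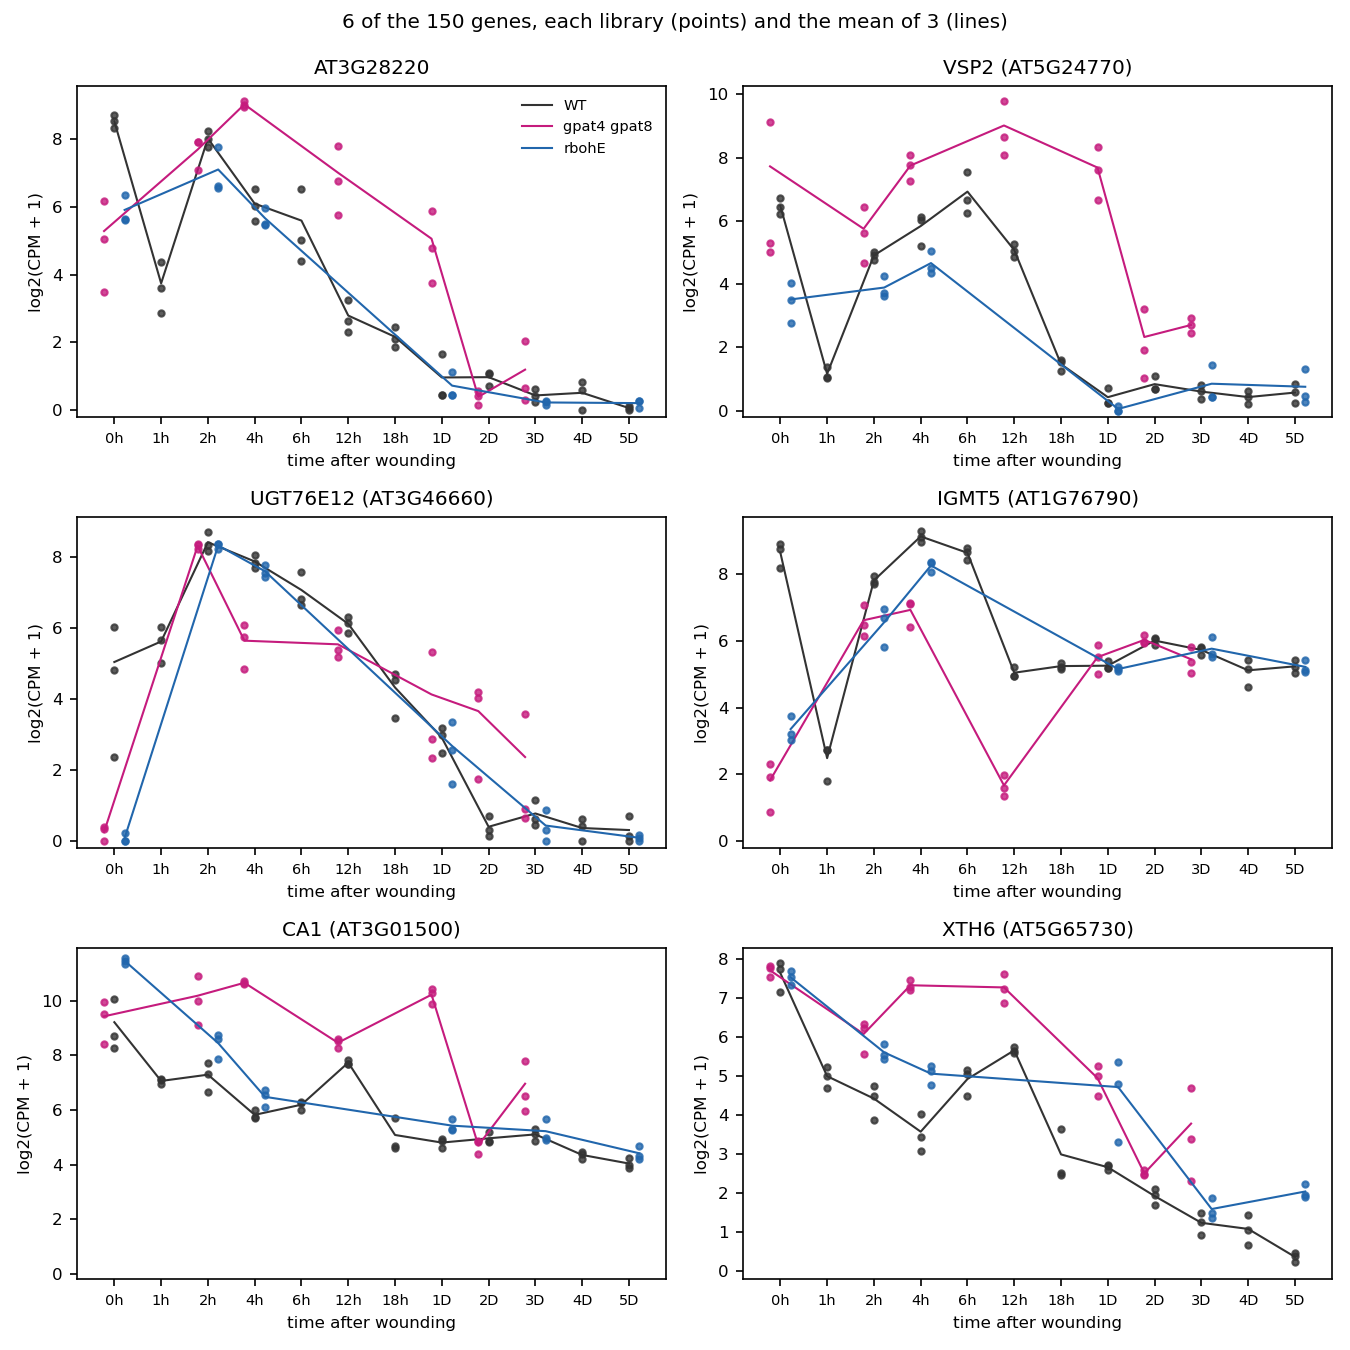
Expression of 6 of the 150 genes as log2(CPM + 1) against time after wounding, with a point for each library and a line through the group means of WT, gpat4 gpat8 and rbohE. AT3G28220 and VSP2 end lowest in WT and rbohE, with VSP2 higher at gpat4 gpat8 3D, UGT76E12 starts near 0 and IGMT5 below its WT level in both lines at 0h, both are higher at 2h, CA1 starts highest in rbohE, and XTH6 starts in overlapping ranges and falls in all 3 genotypes.

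Of the 14 ER body and lectin genes, 12 were called lower at rbohE 5D, and 8 were called lower and 1 higher at gpat4 gpat8 3D. NAI1, the basic helix-loop-helix factor that switches on ER body genes, read 3.57, 4.60 and 6.62 CPM at WT 0h and 54.1, 49.6 and 47.8 at WT 2h. It read 1.51, 0.522 and 0.323 at rbohE 0h and 25.7, 37.8 and 29.4 at rbohE 2h (edgeR log2 fold change 5.53 ± 0.52, adjusted p = 5.59e-14), and 0.315, 1.47 and 2.94 and then 44.2, 60.0 and 54.9 in gpat4 gpat8 (edgeR log2 fold change 5.19 ± 0.50, adjusted p = 2.14e-13). The regulator was higher in every 2h library than in any 0h library of its line.

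NAI2, the protein that forms the ER body, read 6.26, 1.97 and 3.49 CPM at rbohE 0h, 1.52, 2.48 and 1.92 at 2h and 0.407, 0.17 and 0.191 at 5D (edgeR log2 fold change -4.15 ± 0.51, adjusted p = 6.20e-10). Every 5D library was below every 0h library, while 2h and 0h overlapped. BGLU18, the wound-type ER body beta-glucosidase of leaves, read 1852, 2104 and 1831 CPM at WT 0h and at most 196 from WT 1D on. It fell from 468, 346 and 331 to 67.0, 26.6 and 68.7 CPM in rbohE (edgeR log2 fold change -3.04 ± 0.45, adjusted p = 6.93e-08). In gpat4 gpat8 its 3D libraries, 80.5, 179 and 110.0 CPM, overlapped the 0h libraries, 179.5, 103 and 371, though the test passed (edgeR log2 fold change -1.10 ± 0.42, adjusted p = 0.0227). The call was lost without gpat4 gpat8 0h replicate 3 (-0.46), 3D replicate 1 (-0.87) or 3D replicate 3 (-1.02). PYK10, the beta-glucosidase best known from root ER bodies, was scarce, with 14.04, 1.14 and 17.8 CPM at WT 0h and 6.28, 0.456 and 1.87 at rbohE 0h. At rbohE 2h it stood at 0.016, 0.0184 and 0 CPM, at least 56.0-fold lower than at 0h.

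PBP1, a lectin of the PYK10 complex, read 239.9, 159 and 308 CPM at WT 0h and at most 16.5 from WT 1D on. It fell from 60.6, 24.5 and 47.1 to 14.1, 10.2 and 13.8 CPM in rbohE (edgeR log2 fold change -2.02 ± 0.30, adjusted p = 8.05e-08) and from 38.7, 65.9 and 31.1 to 17.3, 14.8 and 10.5 in gpat4 gpat8 (edgeR log2 fold change -1.94 ± 0.30, adjusted p = 2.02e-07), without overlap in either line. JAL23, another jacalin-type lectin, fell from 117, 154 and 136 to 27.7, 28.7 and 21.7 CPM in gpat4 gpat8 (edgeR log2 fold change -2.65 ± 0.33, adjusted p = 6.22e-10). NSP1, a nitrile specifier protein that steers glucosinolate breakdown, fell in rbohE from 105, 53.3 and 72.1 to 26.2, 21.8 and 26.3 CPM (edgeR log2 fold change -1.86 ± 0.24, adjusted p = 2.42e-09), but in gpat4 gpat8 its 3D libraries, 79.2, 71.7 and 63.5 CPM, overlapped those at 0h, 30.9, 46.8 and 77.5. AT1G54010, a GDSL lipase of the complex, was called higher at 2h and lower late in rbohE, with 4.34, 2.84 and 1.39 CPM at 0h, 18.5, 33.9 and 28.0 at 2h and 0.266, 0.306 and 0.249 at 5D (edgeR log2 fold change -3.60 ± 0.77, adjusted p = 6.72e-05 at 5D).

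Of the 7 other genes tested on an ER body and PYK10 list, 1 fell and 1 rose at rbohE 5D, and likewise at gpat4 gpat8 3D. Myrosin cell markers, given above, were higher at rbohE 0h than at WT 0h and fell to 212 to 255 CPM at rbohE 3D, and their part in these changes was not tested.

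Of the 5 indole glucosinolate genes, 4 were called higher at 2h in each line, and 3 were called lower and 1 higher at rbohE 5D and at gpat4 gpat8 3D. MYB34, the activator of the pathway, read 36.7, 49.97 and 43.8 CPM at WT 0h and 1.22, 0.755 and 0.555 at WT 5D. In rbohE it rose from 16.9, 12.5 and 11.3 CPM at 0h to 104, 142 and 123 at 2h (edgeR log2 fold change 3.43 ± 0.18, adjusted p = 2.64e-24) and stood at 1.38, 1.12 and 1.15 at 5D (edgeR log2 fold change -3.70 ± 0.20, adjusted p = 3.20e-22). CYP79B3, which with CYP79B2 makes the first intermediate from tryptophan, fell from 156, 117 and 116 to 19.3, 13.4 and 17.9 CPM (edgeR log2 fold change -3.17 ± 0.21, adjusted p = 4.20e-19), and CYP79B2 from 112, 81.3 and 79.4 to 15.1, 10.8 and 15.5 (edgeR log2 fold change -2.94 ± 0.34, adjusted p = 8.74e-11). In these 3 genes no rbohE 5D library reached the 0h range. At gpat4 gpat8 3D MYB34 read 2.99, 2.66 and 3.68 CPM against 12.8, 18.8 and 16.4 at 0h (edgeR log2 fold change -2.64 ± 0.18, adjusted p = 1.81e-18).

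IGMT5, a methyltransferase that finishes 1-methoxy-indole glucosinolate, read 288, 429 and 469 CPM at WT 0h, 2.51, 5.62 and 5.70 at 1h, 546, 618 and 494 at 4h and 31.5, 36.4 and 41.8 at 5D. At rbohE 0h it read only 12.3, 7.19 and 8.17 CPM and at gpat4 gpat8 0h 0.845, 3.95 and 2.82, both below every late WT library, whose lowest was 23.6. The late levels of the lines were higher than their own 0h levels, 42.1, 32.3 and 34.1 CPM at rbohE 5D (edgeR log2 fold change 1.74 ± 0.29, adjusted p = 1.04e-06) and 40.2, 55.5 and 31.6 at gpat4 gpat8 3D (edgeR log2 fold change 3.78 ± 0.33, adjusted p = 1.08e-14). CYP81F4, a hydroxylase of the same branch, read 18.5, 25.7 and 43.2 CPM at WT 0h and 2.93, 14.2 and 4.76 at WT 4h and 0 in all libraries at 18h, at least 139-fold lower at 18h than at 4h. It has a large antisense neighbour, and its counts may hold reads of both.

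Of the 12 other indole glucosinolate genes, 3 rose and 3 fell at rbohE 5D, and 9 fell and 1 rose at gpat4 gpat8 3D.

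The antioxidant and repair group holds methionine sulfoxide reductases, which mend oxidised proteins, and MDHAR, a monodehydroascorbate reductase that recycles vitamin C. MSRB6 read 26.8, 37.5 and 23.6 CPM at WT 0h and 85.9, 89.6 and 98.0 at WT 2h, and at most 0.537 from 1D on. In rbohE it rose from 19.2, 12.7 and 13.4 to 70.8, 96.8 and 74.7 CPM at 2h (edgeR log2 fold change 2.67 ± 0.38, adjusted p = 1.15e-08) and stood at 0.142, 0.391 and 0.115 at 5D (edgeR log2 fold change -6.31 ± 0.53, adjusted p = 5.94e-15). MDHAR read 35.4, 54.7 and 73.4 CPM at WT 0h but 0.942, 0.799 and 0.275 at rbohE 0h, where it rose to 20.4, 34.1 and 21.6 at 2h (edgeR log2 fold change 5.48 ± 0.68, adjusted p = 2.59e-10) and at 5D overlapped its 0h level with 1.01, 0.493 and 2.83. All 4 genes rose at 2h in rbohE and in gpat4 gpat8, and at rbohE 5D only MSRB6 was called lower. MSRB9, near MSRB7 on chromosome 4, read 32.5, 51.6 and 88.9 CPM at WT 0h, 1.63, 2.005 and 0.791 at rbohE 0h and 1.12, 3.56 and 4.82 at gpat4 gpat8 0h. Every 0h library of both lines was below every WT 0h library.

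Of the 17 cell wall genes, 12 were called lower at rbohE 1D and all 17 at 3D and at 5D. XTH6, an enzyme that cuts and rejoins xyloglucan, read 214, 237 and 142 CPM at WT 0h and 0.32, 0.173 and 0.381 at WT 5D. Its 0h ranges in the lines overlapped that of WT, with 159, 185 and 206 CPM at rbohE 0h and 224, 184 and 216 at gpat4 gpat8 0h. It fell to 2.90, 2.77 and 3.69 CPM at rbohE 5D (edgeR log2 fold change -6.10 ± 0.46, adjusted p = 1.37e-16) and to 9.52, 3.93 and 24.8 at gpat4 gpat8 3D (edgeR log2 fold change -4.31 ± 0.42, adjusted p = 4.52e-13). In both lines every late library was below every 0h library. XTH7, of the same family, fell from 117, 110.4 and 126.5 to 1.7, 1.02 and 1.396 CPM (edgeR log2 fold change -6.65 ± 0.37, adjusted p = 1.59e-21) and from 122, 75.5 and 118 to 3.86, 4.29 and 4.05 (edgeR log2 fold change -4.97 ± 0.34, adjusted p = 9.15e-19), also without overlap.

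Members of the cellulose synthase-like A family make mannan backbones. ATCSLA15 read 61.3, 85.6 and 72.9 CPM at WT 0h and at most 0.432 from WT 1D on, but 3.04, 7.14 and 5.52 at rbohE 0h and 1.67, 0.89 and 7.76 at gpat4 gpat8 0h. It rose at rbohE 2h to 14.6, 26.0 and 13.5 CPM (edgeR log2 fold change 2.04 ± 0.58, adjusted p = 0.00157). CSLA01, of the same family, read 21.7, 40.9 and 37.0 CPM at WT 0h, 0, 0.235 and 0 at WT 1h and 15.2, 11.9 and 12.7 at WT 2h, a drop and a partial return within 2h. In rbohE it read 1.78, 0.293 and 0.936 CPM at 0h and 0 in all 3 libraries at 3D, at least 18.4-fold lower against the floor. CSLA10 read 209.8, 202 and 140.0 CPM at WT 0h and fell in rbohE from 17.1, 22.4 and 17.97 to 4.36, 4.62 and 4.74 at 5D (edgeR log2 fold change -2.29 ± 0.33, adjusted p = 3.73e-08), while in gpat4 gpat8 26.3, 12.6 and 36.2 CPM at 0h and 29.7, 21.8 and 24.6 at 3D overlapped.

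The median log2 fold change of the cell wall genes was -3.01 at rbohE 3D and -3.05 at 5D, and at rbohE 2h 10 were lower and 3 higher. Summed xylem markers stood at 62.1 to 86.5 CPM at rbohE 0h, against 12.2 to 23.1 at WT 0h, at 106 to 151 at rbohE 1D and at 15.5 to 22.4 at rbohE 5D. Epidermis markers stood at 859 to 907 CPM at rbohE 0h and 402 to 425 at rbohE 5D, and the part of either list in these changes was not tested. In gpat4 gpat8, 9 were lower at 3D and 0 higher. At 4h, 11 of the 17 were higher in gpat4 gpat8 than in WT and 0 lower, with a median of 1.61. Of the 9 other genes tested on a wall loosening list, 5 fell and 1 rose at rbohE 5D, 4 fell and 3 rose at gpat4 gpat8 3D, and 7 were higher in gpat4 gpat8 than in WT at 4h.

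In WT, 0 of 11 photosynthesis and light genes regained their 0h level between 2h and 6h, though some returned in part. Their median L was 5.89 at 0h, 3.03 at 2h and 4.62 at 12h. RVE2 rose from 0.0049 of its 0h level at 1h to 0.77 at 12h. CA1, the chloroplast carbonic anhydrase, read 305, 417 and 1063 CPM at WT 0h, 101, 159 and 209 at 2h, 53.1, 50.8 and 62.9 at 4h and 17.8, 13.7 and 14.8 at 5D. At rbohE 0h it read 3011, 2859 and 2643 CPM, above every WT library. It fell there to 426, 234 and 388 at 2h (edgeR log2 fold change -2.77 ± 0.38, adjusted p = 5.72e-09) and 17.3, 18.8 and 24.8 at 5D (edgeR log2 fold change -7.35 ± 0.48, adjusted p = 4.02e-19). In gpat4 gpat8 the order differed, with 742, 344 and 988 CPM at 0h, 1015, 1934 and 553 at 2h, 1613, 1691 and 1566 at 4h and 1387, 1265 and 943 at 1D. At 2h, 4h and 1D each of these libraries was above the WT libraries of the same time. By 3D it had fallen to 61.0, 221 and 89.8 CPM (edgeR log2 fold change -2.76 ± 0.38, adjusted p = 1.49e-08). RBCS2B, a small subunit of Rubisco whose near copies may share reads, was also higher in the line at 4h, with 97.8, 91.0 and 107 CPM at WT 4h and 912, 954 and 853 at gpat4 gpat8 4h (edgeR log2 fold change 3.40 ± 0.24, adjusted p = 5.71e-18).

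FRO6, a ferric reductase of leaf cells, read 275, 312 and 455 CPM at WT 0h, 765, 739 and 809.7 at rbohE 0h and 1476, 1130.3 and 1192 at gpat4 gpat8 0h, a rising order without overlap. It fell in rbohE to 71.3, 95.5 and 96.0 CPM at 5D (edgeR log2 fold change -3.36 ± 0.25, adjusted p = 9.29e-17) and in gpat4 gpat8 to 124, 122 and 173 at 3D (edgeR log2 fold change -3.46 ± 0.26, adjusted p = 2.22e-17). BBX17, a B-box factor of light signalling, read 15.6, 20.8 and 22.3 CPM at WT 0h, 95.7, 101 and 81.0 at rbohE 0h and 10.5, 5.23 and 7.80 at rbohE 5D (edgeR log2 fold change -3.78 ± 0.54, adjusted p = 2.75e-08). FT, the mobile flowering signal, read 10.9, 19.4 and 12.5 CPM at WT 0h and 2.83, 4.01 and 4.198 at rbohE 0h, falling to 0.106, 0.476 and 0.306 at rbohE 5D (edgeR log2 fold change -3.84 ± 0.53, adjusted p = 1.24e-08).

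RVE2, a MYB-like factor related to the clock genes, moved in opposite directions in the lines. It read 54.3, 57.2 and 63.5 CPM at WT 0h and 0.248, 0.42 and 0.187 at WT 1h, 95.8, 81.4 and 98.3 at rbohE 0h and 1.26, 0.825 and 0.847 at gpat4 gpat8 0h. At 3D it read 28.7, 30.6 and 41.4 CPM in rbohE (edgeR log2 fold change -1.63 ± 0.25, adjusted p = 1.56e-07) and 48.3, 37.2 and 37.6 in gpat4 gpat8 (edgeR log2 fold change 5.12 ± 0.31, adjusted p = 1.04e-20). The 0h level of RVE2 was high where CCA1 was low (WT and rbohE) and low where CCA1 was high (gpat4 gpat8), as were the WT 1h levels, and the part of time of day in this was not tested.

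All 11 photosynthesis and light genes were called lower at rbohE 1D, 3D and 5D (median -3.32, -3.68 and -3.31), and 10 already at 2h. In gpat4 gpat8 10 were lower at 2D and 9 at 3D, with RVE2 higher at both. From 2D to 3D, 7 of the 11 rose in gpat4 gpat8 (median 1.56). Of 16 other photosynthesis genes on a list, 15 fell at rbohE 5D and 12 at gpat4 gpat8 3D, with 0 higher in either, and 16 were higher in gpat4 gpat8 than in WT at 4h. Summed mesophyll markers moved the same way, at 3356 to 4539 CPM at rbohE 3D and 4182 to 5009 at gpat4 gpat8 3D against the 0h sums above, and their part in these changes was not tested.

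Hormone genes included both directions. CYP707A3, which inactivates abscisic acid, read 11.2, 6.72 and 28.6 CPM at WT 0h, 9.67, 13.5 and 9.48 at rbohE 0h and 127, 83.5 and 242 at gpat4 gpat8 0h. It was called higher at rbohE 5D with 5.60, 80.0 and 54.8 CPM (edgeR log2 fold change 1.88 ± 0.56, adjusted p = 0.00356), though replicate 1 lay below its 0h libraries and the call was lost without replicate 2 (1.25). In gpat4 gpat8 it fell to 13.4, 13.4 and 11.2 CPM at 3D (edgeR log2 fold change -3.85 ± 0.61, adjusted p = 2.71e-07). BR6OX2, which makes the last step of brassinosteroid synthesis, fell in rbohE from 13.1, 13.2 and 11.5 to 1.68, 1.36 and 1.36 CPM (edgeR log2 fold change -3.32 ± 0.31, adjusted p = 8.34e-14) and in gpat4 gpat8 from 9.30, 6.73 and 6.69 to 2.65, 2.13 and 0.954 (edgeR log2 fold change -2.27 ± 0.30, adjusted p = 2.74e-09). Of the 7 hormone genes, 5 fell and 1 rose at rbohE 5D, and 6 fell at gpat4 gpat8 3D.

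Among the 80 members outside these roles stands the top score. AT3G28220, a TRAF-like protein whose promoter is printed above, read 367, 412 and 315 CPM at WT 0h, 6.34, 11.2 and 19.6 at 1h, 214, 302 and 255 at 2h and 0, 0.0944 and 0.0476 at 5D. In rbohE it went from 80.4, 47.3 and 48.9 CPM at 0h to 0.212, 0.051 and 0.21 at 5D (edgeR log2 fold change -8.77 ± 0.92, adjusted p = 8.29e-12). In gpat4 gpat8 it went from 32.4, 10.3 and 71.0 CPM at 0h to 490.5, 548 and 511 at 4h and 0.237, 3.08 and 0.562 at 3D (edgeR log2 fold change -5.14 ± 0.71, adjusted p = 1.45e-08). The WT 5D, rbohE 5D and gpat4 gpat8 3D libraries lay below the 0h libraries of their genotype. In gpat4 gpat8 the highest L among 1D, 2D and 3D was only 0.23 below that at 0h.

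AT2G10940, of the lipid-transfer and seed albumin superfamily, was highest at rbohE 0h. It read 25.3, 74.0 and 149 CPM at WT 0h, 377, 385 and 334 at rbohE 0h and 2.97, 0.663 and 9.82 at gpat4 gpat8 0h, and 0.142, 0.17 and 0.23 at rbohE 5D (edgeR log2 fold change -11.20 ± 1.14, adjusted p = 3.27e-12). AT1G66100, a thionin, a small antimicrobial peptide, read 221, 220.1 and 178 CPM at WT 0h and 623, 593 and 799 at gpat4 gpat8 0h, and fell to 10.9, 25.1 and 12.2 at gpat4 gpat8 3D (edgeR log2 fold change -5.66 ± 0.36, adjusted p = 6.54e-20) and from 85.3, 106 and 92.8 to 0.673, 0.799 and 0.631 in rbohE (edgeR log2 fold change -7.29 ± 0.42, adjusted p = 3.11e-21). PGL5, a 6-phosphogluconolactonase, fell from 32.7, 34.0 and 46.7 to 1.03, 4.57 and 1.48 CPM in gpat4 gpat8 (edgeR log2 fold change -4.26 ± 0.49, adjusted p = 1.05e-10). In these 3 genes no late library printed here reached the 0h range of its line.

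AT5G23820, an MD-2-related lipid recognition protein with its promoter printed above, regained its WT 0h level at 6h, with 175, 182 and 153 CPM at 0h, 6.13, 7.77 and 9.11 at 1h and 163, 155 and 208 at 6h. It fell at WT 18h to 10.04, 10.9 and 12.2 CPM from 125, 148 and 119 at 4h (edgeR log2 fold change -3.64 ± 0.27, adjusted p = 6.47e-17). AT4G18440, of the L-aspartase family, fell in the same interval from 637, 678 and 653 to 40.1, 39.1 and 56.5 CPM (edgeR log2 fold change -3.94 ± 0.29, adjusted p = 6.20e-17). AT3G22121, a gene without a protein product in RefSeq that overlaps the wall protein gene CWLP on the opposite strand, read 98.4, 38.2 and 142 CPM at WT 0h and 175, 249.5 and 192 at rbohE 0h. Since strand use in counting is not given, its counts may hold reads of CWLP.

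Some neighbouring members cannot be counted apart. AT3G28290 and AT3G28300, both named AT14A and of unknown function, are identical over their transcripts, and their reads cannot be assigned to either. AT3G28290 read 67.0, 40.02 and 47.7 CPM at WT 0h, 50.3, 43.7 and 30.5 at rbohE 0h and 3.99, 3.72 and 8.12 at gpat4 gpat8 0h, and fell to 6.87, 5.84 and 7.67 at rbohE 5D (edgeR log2 fold change -2.83 ± 0.39, adjusted p = 1.15e-08). The nearby AT3G28270, of the same DUF677 family, fell in rbohE from 139, 71.4 and 164 to 18.9, 16.99 and 12.9 CPM (edgeR log2 fold change -3.16 ± 0.30, adjusted p = 1.54e-13). Every 5D library of these genes was below every 0h library. TSA1, an ER body protein related to NAI2, read 89.1, 67.8 and 71.9 CPM at rbohE 0h and 58.5, 38.1 and 54.5 at 5D, a difference with adjusted p under the threshold but too small for a call (edgeR log2 fold change -0.82 ± 0.32, adjusted p = 0.0237). NSP4, beside NSP1, fell from 14.3, 6.94 and 9.49 to 3.88, 3.194 and 3.77 CPM (edgeR log2 fold change -1.73 ± 0.26, adjusted p = 7.85e-08). MBP1, a myrosinase-binding lectin, fell from 91.9, 72.2 and 89.0 to 50.3, 27.4 and 49.4 CPM (edgeR log2 fold change -1.22 ± 0.34, adjusted p = 0.00191), a call lost without 5D replicate 2 (-0.98). JR1, a jasmonate-responsive jacalin lectin, fell from 323, 174 and 202 to 40.2, 18.1 and 30.4 CPM in rbohE (edgeR log2 fold change -3.20 ± 0.34, adjusted p = 1.05e-11), whereas in gpat4 gpat8 100.2, 124 and 190.5 CPM at 0h and 105, 116 and 93.7 at 3D overlapped and did not pass the test (edgeR log2 fold change -0.67 ± 0.32, adjusted p = 0.0642). From 1D to 5D in rbohE, 34 members fell further (6.37% of all) and 7 rose (6.06%), among them 7 of 17 cell wall genes and 5 of 12 jasmonate genes that fell.

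The rbohE and gpat4 gpat8 lines did not start where WT started. On the L scale, rbohE 0h lay below WT 0h for 99 of the 150 members, by at least 1 for 78, and above by at least 1 for 21, with a median difference of -1.09, while over the 18109 genes with L of at least 1 in either group 5.58% were lower and 3.14% higher by that much and the median was -0.09. In gpat4 gpat8 0h, 121 lay below, 95 by at least 1 (11.1% of all genes) and 10 above by at least 1 (7.55%), with a median of -1.48 against -0.25 over all. Members were chosen for a high WT 0h, so these shares are a description. Both lines were lower by at least 1 for 63 members, and 9 were higher by at least 1 in rbohE and lower by at least 1 in gpat4 gpat8. The share over all genes was not counted for either set.

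Furthest below WT 0h in rbohE were BSMT1 (difference in L -5.53), IGMT5 (-5.28), TPS04 (-5.18), MDHAR (-5.05), UGT76E12 (-4.95) and MSRB9 (-4.57). Furthest above were GER3 (3.98), CA1 (2.25), the basic helix-loop-helix gene AT4G01460 (2.23) and BBX17 (2.19). In gpat4 gpat8 the lowest were IGMT5 (-6.81), the aspartyl protease gene AT4G16563 (-5.36), BSMT1 (-5.24), the GDSL lipase gene AT1G54020 (-4.93), RVE2 (-4.91) and UGT76E12 (-4.78). The highest were CYP707A3 (3.20), FRO6 (1.86), the adenine phosphoribosyltransferase gene APT3 (1.72) and AT1G66100 (1.7). BSMT1, IGMT5 and UGT76E12 stood among the lowest in both lines.

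**Figure D4:**
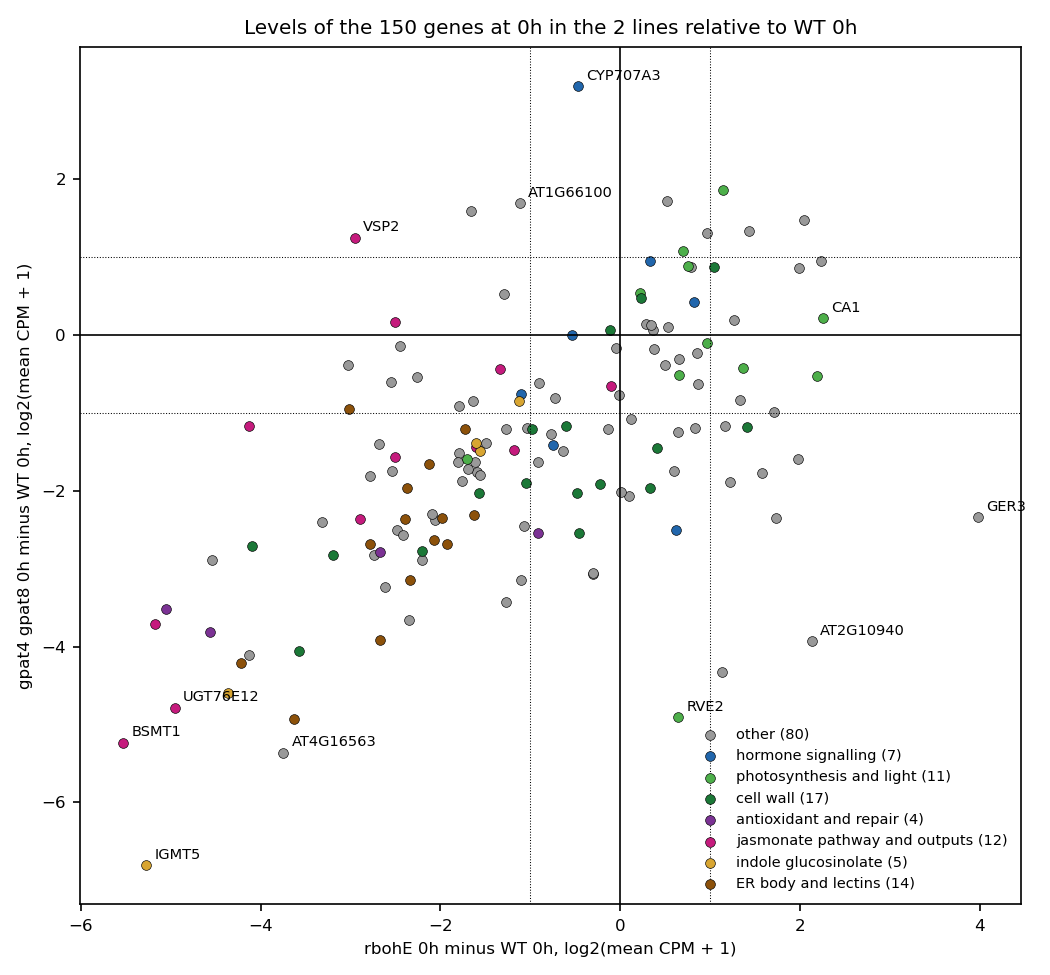
Each of the 150 genes at 0h, with the difference of log2(mean CPM + 1) from WT 0h in rbohE on the x axis and in gpat4 gpat8 on the y axis, coloured by role. Dotted lines mark differences of 1, 63 genes lie in the lower left beyond both, and GER3 and CYP707A3 stand apart at the right and at the top.

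The 2 lines could be compared at 0h with a test, since neither group chose the genes, though only the gpat4 gpat8 libraries carry the M. In gpat4 gpat8 0h 41 members were lower than in rbohE 0h (9.91% of all genes) and 25 higher (11.3%), 66 in all (21.2%), with a median of -0.20. GER3, an oxalate oxidase-like germin, read 94.7, 99.9 and 41.1 CPM at rbohE 0h and 0 in all 3 libraries at gpat4 gpat8 0h, at least 1497-fold lower against the floor. RVE2 (edgeR log2 fold change -6.46 ± 0.33, adjusted p = 6.87e-24), AT2G10940 (edgeR log2 fold change -6.22 ± 0.85, adjusted p = 1.51e-08) and AT3G22121 (edgeR log2 fold change -5.71 ± 1.45, adjusted p = 0.000713) were the other large decreases, with the uncharacterised gene AT4G19430, at 0, 0.0485 and 0.0831 CPM against 2.92, 4.34 and 2.62. The counts of AT3G22121 may hold reads of CWLP. Higher in gpat4 gpat8 0h were VSP2 (edgeR log2 fold change 4.45 ± 0.70, adjusted p = 3.23e-07), CYP707A3 (edgeR log2 fold change 3.91 ± 0.61, adjusted p = 2.53e-07), NATA1 (edgeR log2 fold change 3.41 ± 0.62, adjusted p = 5.61e-06), and the transporters of the MATE family AT1G61890 (edgeR log2 fold change 3.38 ± 0.23, adjusted p = 2.44e-18) and AT5G44050 (edgeR log2 fold change 3.33 ± 0.34, adjusted p = 3.54e-12). Without gpat4 gpat8 0h replicate 3 the differences were 1.84 for VSP2 and 1.81 for NATA1. By role, 6 of 12 jasmonate genes were higher and 0 lower, and 5 of 11 photosynthesis and light genes were lower and 0 higher. Of the 12 other jasmonate outputs 8 were higher and 0 lower, and of the 16 other photosynthesis genes 6 were higher and 1 lower. For 92 of the 150 members gpat4 gpat8 0h replicate 3 was the highest of its group.

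Late levels were also below each line's own 0h for most members, from 1D on in rbohE and at 2D and 3D in gpat4 gpat8. At 1D, 110 members were called lower in rbohE (11.7% of all tested genes) and 6 higher (12.8%). At 3D the counts were 122 lower (11.3%) and 3 higher (13.9%), and at 5D 121 lower (11.8%) and 2 higher (12.7%), with a median log2 fold change of -2.84 at 5D. The 2 higher at 5D were CYP707A3 and IGMT5. At all 3 times 101 members were called lower (6.76% of all). The 4 largest fitted decreases at 5D, of which those of genes at the floor depend on the prior count, were in AT2G10940 and AT3G28220, given above, in GER3, which read 0, 0 and 0.0382 CPM and was at least 1459-fold lower against the floor, and in the cysteine protease gene AT4G11320, at least 84.9-fold lower. AT3G57010, of the phosphotriesterase family, and AT1G09500 had estimates above 0 but did not pass the test at 5D, with 0.673, 0.578 and 0.631 and 2.16, 2.31 and 2.199 CPM against 0.165, 0.147 and 0.21 and 0.598, 0.571 and 0.5 at 0h. At rbohE 2h, 63 were lower (23.7%) and 49 higher (21.6%), and at 4h 67 were lower (17.9%) and 36 higher (19.2%).

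In gpat4 gpat8 the members called lower were most numerous at 2D and 3D. At 2h 45 members were lower than at 0h (18.3% of all) and 60 higher (17.8%), at 4h 25 (12.8%) and 60 (16.0%), at 12h 30 (6.90%) and 21 (9.60%), and at 1D 51 (8.34%) and 22 (12.0%). At 2D 108 were lower (12.9%) and 10 higher (15.0%), with a median of -2.05, and at 3D 92 were lower (11.2%) and 12 higher (13.5%), with a median of -1.40. The comparisons of 12h and 1D with 0h lie within the libraries that carry an M. The increases at 3D were led by RVE2, UGT76E12 (0.574, 10.98 and 0.869 CPM), AT1G54020 (edgeR log2 fold change 4.01 ± 0.77, adjusted p = 1.16e-05) and IGMT5. The call of UGT76E12 (edgeR log2 fold change 4.10 ± 1.13, adjusted p = 0.00172) rested on replicate 2 and was lost without it (1.56). The gene with the largest fitted decrease, AT3G16660, rested on 0, 0 and 5.08 CPM at 0h, a single library. AT5G44050 fell from 15.3, 15.8 and 17.5 to 0.693, 0.709 and 0.46 CPM (edgeR log2 fold change -4.98 ± 0.38, adjusted p = 1.23e-16). From 2D to 3D, 45 members rose (2.80% of all) and 4 fell (1.60%), with a median of 0.70.

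**Figure D5:**
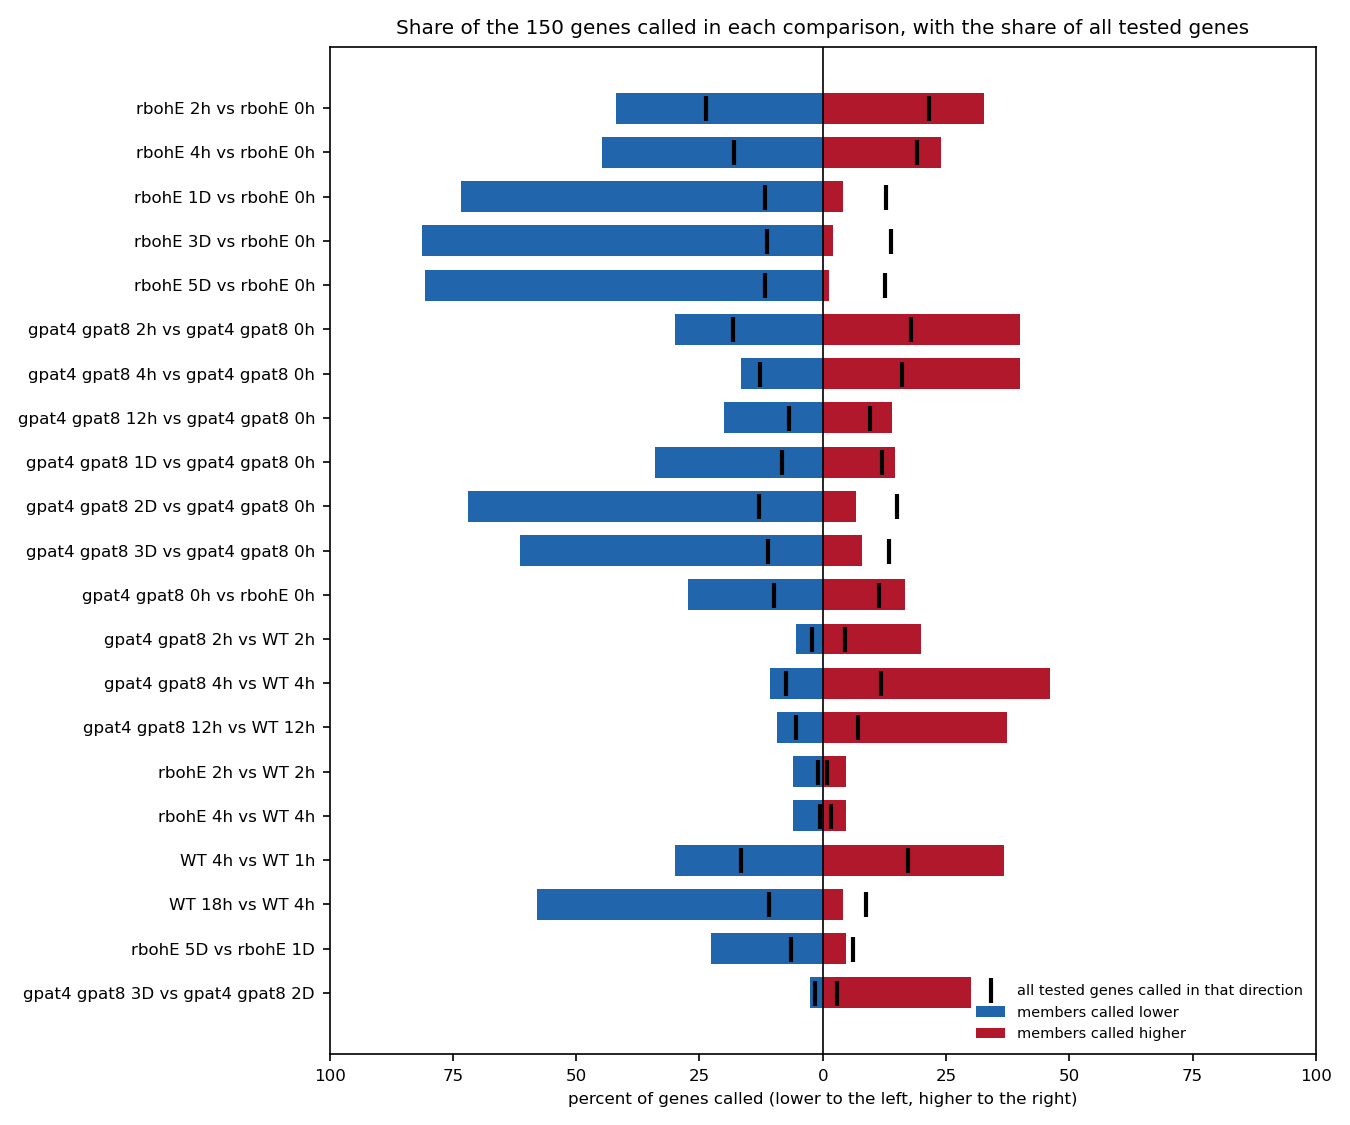
Percent of the 150 genes called lower (bars to the left) and higher (bars to the right) in each tested comparison, with black ticks for the percent of all 23475 tested genes called in that direction. The bars of rbohE 1D, 3D and 5D against 0h and of gpat4 gpat8 2D and 3D against 0h reach far beyond their ticks to the left, while the bars of rbohE against WT at 2h and 4h stay under 10% and still pass their ticks.

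Of the members, 86 were called lower at 3D in both lines (4.87% of all tested genes), and the lines were not tested against each other at 3D. At every late time of both lines 34 members were called lower (1.42%). On the description scale, the gpat4 gpat8 1D libraries stood above WT 1D by at least 1 in L for 86 members and below for 2, with a median difference of 1.21, whereas at rbohE 1D 17 stood above and 3 below with a median of 0.02. At 3D the numbers were 53 and 0 in gpat4 gpat8 and 2 and 1 in rbohE, with medians of 0.74 and 0.09. Over all genes with L of at least 1 in either group, the medians at 1D were -0.13 in gpat4 gpat8 and -0.04 in rbohE. At 3D they were -0.05 and -0.008. Members were chosen for low WT levels from 1D to 5D, so an excess above WT is a description only. Scored by their own 0h and late levels, 90 members had a score of at least 1 in rbohE (4.89% of the 19246 genes with L of at least 1 in any of those groups) and 50 stood among the 150 highest of that line, while in gpat4 gpat8 38 had a score of at least 1 (4.26% of 19292 genes) and 9 stood among its 150 highest.

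Early levels of the lines could be tested against WT at 2h, 4h and 12h, with the M on the gpat4 gpat8 libraries at 12h. rbohE had few calls among the members, though more than the share of all genes, with 9 members lower (0.873% of all) and 7 higher (0.912%) at 2h and 9 lower (0.613%) and 7 higher (1.57%) at 4h. AGP17, an arabinogalactan protein, read 1.59, 0.802 and 2.17 CPM at WT 4h and 5.10, 4.59 and 4.25 at rbohE 4h (edgeR log2 fold change 1.63 ± 0.35, adjusted p = 0.00109). The 4h total of 16 members (2.19% of all genes in either direction) became 10 when replicate 3 of rbohE was left out and 9 when replicate 2 of WT was. gpat4 gpat8 had 8 lower (2.27%) and 30 higher (4.58%) at 2h, 16 lower (7.39%) and 69 higher (11.8%) at 4h and 14 lower (5.53%) and 56 higher (7.20%) at 12h, and medians of 0.86 at 4h and 0.78 at 12h. At 4h, 9 of 11 photosynthesis and light genes were higher and 1 lower. Mesophyll markers summed to 15200 to 17610 CPM at gpat4 gpat8 4h and 1483 to 1914 at WT 4h, and their part in this was not tested. AT2G10940 read 1.495, 1.003 and 4.55 CPM at WT 4h and 48.1, 139.9 and 56.2 at gpat4 gpat8 4h (edgeR log2 fold change 5.32 ± 0.83, adjusted p = 3.49e-07). AT3G28220 read 8.59, 5.20 and 3.97 CPM at WT 12h and 53.0, 222 and 106 at gpat4 gpat8 12h (edgeR log2 fold change 4.56 ± 0.65, adjusted p = 7.89e-08). Lower were DR4, a drought-repressed protease inhibitor gene, with 3.59, 8.47 and 2.91 CPM at WT 4h and 0.0652, 0.0461 and 0 at gpat4 gpat8 4h (edgeR log2 fold change -6.90 ± 0.99, adjusted p = 4.09e-08), and MSRB7, with 1.45, 2.08 and 1.31 and 0, 0.0513 and 0.127 CPM at 12h (edgeR log2 fold change -4.57 ± 0.95, adjusted p = 7.94e-05). In all 4 genes the libraries of the line lay apart from those of WT.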

How the data were processed

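The files hold estimated counts per gene that the authors deposited for 75 leaf libraries. Per the submitters' processing notes, Trimmomatic 0.39, HISAT2 2.2.1, StringTie 1.3.4 and edgeR 3.19 were used with TAIR10; the role of each and the use of strand are not given in the sources used here. CPM values were each count scaled by its library's total. The estimated counts were rounded and tested with edgeR 4.0.16 in R 4.3.3 (TMM scaling, low counts removed at a minimum count of 10 and a total of 15, prior count 0.125), in 1 quasi-likelihood fit of all 75 libraries with 21 contrasts; 23475 genes were tested, and all 150 members passed this filter. Benjamini-Hochberg adjustment ran over all tested genes, and the ± values are standard errors derived from the fold change and the F statistic. A call needed an adjusted p under 0.05 and a log2 fold change of at least 1 in size. The fit was also run on simulated data with the same dispersion for every gene. That setting cannot show how the fit handles genes with a wide spread or single outlying libraries, and no result here rests on it. Fits without 1 library kept the gene set and the dispersion trend of the full fit.

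The members and gene lists were chosen with earlier results of these data known. Genes were named by rule: the 20 highest scores, members on a gene list or in a neighbour run, those around rank 150, and those with the largest differences in each comparison; RBCS2B, FT, MES7, SIP2 and AT1G10020, and some tests shown for members so named, were picked after their values were seen. Promoters came from RefSeq TAIR10.1, of which 3 are printed and 1 is not reported here, and near-identical copies were found with BLAST+ 2.17.0. Of 32833 gene IDs, 32548 matched RefSeq. The 75 pairs of replicate libraries differed by a chi-square per degree of freedom of at least 13.4. It was taken on the deposited counts, whose steps of about 2.64 inflate it. All were kept as separate samples, but this value cannot show that they came from separate plants. Same-numbered replicates deviated together in every pair, with correlations above 0.1, only for WT 18h against WT 4h (0.230, 0.152 and 0.345), where the fit with the replicate number as a block called 93 members. Alternatives were DESeq2 1.42.0, other scalings and filters, the replicate block and leaving out each library.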

Additional observations from a re-analysis of the deposited data

Results flagged for a closer look

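For 8 of the 150 genes (5.33%), every rbohE 3D library lay below every rbohE 0h library while every gpat4 gpat8 3D library lay above every gpat4 gpat8 0h library, against 4.67% of the 23475 genes tested. In each case the difference between the lines was not tested. RVE2, the clock-related MYB factor, had a log2 fold change of -1.63 in rbohE and 5.12 in gpat4 gpat8. The uncharacterised gene AT4G19430 had -3.93 and 2.52, the latter from libraries near the floor at gpat4 gpat8 0h, where the fitted value depends on the prior count. AT3G28290 had -3.35 and 1.45, and AT3G28300, its identical copy also named AT14A, -3.33 and 1.44. ARR6, a type-A cytokinin response regulator, had -2.57 and 0.93. SIP2, of the raffinose synthase family, had -1.30 and 1.34. MES7, a methylesterase, had -0.88 and 0.33, and AT1G10020 had -0.96 and 0.58. In edgeR's test MES7 and AT1G10020 were called in neither line, and ARR6 was called in rbohE but not in gpat4 gpat8. Groups of 3 libraries were too small for a formal search for single outlying samples. Still, rbohE 3D replicate 1 correlated at 0.9622 and 0.9629 with replicates 2 and 3, which correlated at 0.9927 with each other. The value 0.9622 was the lowest of all 75 pairs. For rbohE 5D replicate 1 the values were 0.9837 and 0.9801, against 0.9927. Leaving out 1 library gave 117 to 123 members lower at rbohE 3D and 113 to 121 at 5D.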

How the results depend on the processing

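Over 22 counts and 260 alternative values, no call reversed and 3 counts moved by more than 1.5 times, all for rbohE 4h against WT 4h. Its main count of 16 became 25 when only those 2 groups were fitted, and ran from 9 to 17 when 1 library was left out; the cause was not tested. With the estimated counts divided by their spacing, an alternative added after seeing the data, it was 24. The replicate block gave 121 members lower at rbohE 5D, 90 at gpat4 gpat8 3D and 67 called between the lines at 0h. It changed no count by more than 1.5 times. Outside WT 18h against WT 4h, at least 1 same-numbered pair had a correlation of 0.1 or less. The highest, 0.442, was in gpat4 gpat8 2h against WT 2h, where the other pairs had 0.091 and 0.254. The labels give the replicates only a number, so shared batches are not known. Without gpat4 gpat8 0h replicate 3, 74 members were lower at gpat4 gpat8 3D. Of the 150 members, 146 stayed with TMM scaling, 113 with a pseudocount of 0.1, 119 with 5 and 128 to 137 without 1 WT 0h library. Of 1019 alternative values for the 85 tests printed for single genes, 1009 kept their direction and call, 9 lost the call (MBP1, BGLU18, NATA1, CYP707A3 and UGT76E12) and 1 gained it (BSMT1 at rbohE 5D with DESeq2).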
